A study of Homo sapiens with 2 samples.

Results

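The 7 genes described here are TP53INP1, TP53I3, GDF15, PMAIP1, APAF1, BIRC2 and XIAP, 5 of which belong to the p53 response and 2 of which encode inhibitors of apoptosis proteins. They were taken by symbol from the platform annotation, and each was read by 1 probe set, so they make up 7 of the 14812 genes and 7 of the 46255 probe sets analysed. The genes lie on chromosomes 8 (TP53INP1), 2 (TP53I3), 19 (GDF15), 18 (PMAIP1), 12 (APAF1), 11 (BIRC2) and X (XIAP), and which exons the probes read was not analysed here. RNA came from BE(2)C, an established human neuroblastoma line with an amplified MYCN gene, grown as cultured cells. The MYCN siRNA culture received 1 siRNA against MYCN (named MYCN2, from Qiagen), and the control siRNA culture received siRNAs of the ONTARGETplus type from Dharmacon. Lipofectamine 2000 was the reagent in both, and both were harvested at 36 hours. There was 1 Affymetrix Human Gene 2.0 ST array for the MYCN siRNA culture and 1 for the control siRNA culture, so no value has a replicate and no test was made, and precision is limited by this number of arrays. An effect of the MYCN siRNA on other transcripts, or of the suppliers' different siRNA designs, cannot be told apart from that of MYCN knockdown. The MYCN transcript was not analysed here, and how far it was reduced is therefore unknown. The control array is titled a reanalysis, a word left without explanation in the labels.

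The p53 response is set off by DNA damage and other stress and switches on genes for cell cycle arrest, repair and cell death. In the mitochondrial route to apoptosis, BH3-only proteins such as NOXA (encoded by PMAIP1) neutralise the guardians of the BCL2 family, cytochrome c leaves the mitochondria and assembles with APAF1 into the apoptosome, and the caspases activated there are held in check by XIAP. BIRC2 encodes cIAP1, a ubiquitin ligase that acts chiefly on signalling below tumour necrosis factor receptors. TP53INP1 encodes a stress protein that binds ATG8 proteins of autophagosomes, TP53I3 encodes a quinone oxidoreductase tied to oxidative stress, and GDF15 encodes a secreted cytokine of the TGF-beta superfamily. MYC proteins are known to sensitise cells to apoptosis. The p53 targets CDKN1A and MDM2 were not analysed here.

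The promoters are shown for the members past 2-fold that had an entry in the RefSeq promoter table, and for BIRC2, which holds a complete cyclic AMP response element (CRE). The windows run from 250 bases before to 50 bases after the annotated start (GRCh38.p14), 5′ to 3′ on the gene's strand, and capitals mark matches on either strand to the CRE core TGACG, the GC box GGGCGG and the TATA box TATAAA. The positions are chr18:59899746-59900045 (plus strand) for PMAIP1, chr2:24084785-24085084 (minus strand) for TP53I3, chr19:18385908-18386207 (plus strand) for GDF15 and chr11:102346964-102347263 (plus strand) for BIRC2.
PMAIP1: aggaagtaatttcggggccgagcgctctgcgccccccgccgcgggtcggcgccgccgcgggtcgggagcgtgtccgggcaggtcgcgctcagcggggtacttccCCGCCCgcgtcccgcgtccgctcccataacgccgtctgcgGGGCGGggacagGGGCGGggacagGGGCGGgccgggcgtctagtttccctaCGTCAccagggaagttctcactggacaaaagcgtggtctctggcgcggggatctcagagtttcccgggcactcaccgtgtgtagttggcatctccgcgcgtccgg
TP53I3: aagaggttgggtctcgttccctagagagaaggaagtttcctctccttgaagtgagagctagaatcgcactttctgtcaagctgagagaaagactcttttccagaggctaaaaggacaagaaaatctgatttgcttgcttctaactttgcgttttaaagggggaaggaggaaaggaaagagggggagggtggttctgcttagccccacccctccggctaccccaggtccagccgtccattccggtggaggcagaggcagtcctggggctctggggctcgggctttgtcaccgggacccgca
GDF15: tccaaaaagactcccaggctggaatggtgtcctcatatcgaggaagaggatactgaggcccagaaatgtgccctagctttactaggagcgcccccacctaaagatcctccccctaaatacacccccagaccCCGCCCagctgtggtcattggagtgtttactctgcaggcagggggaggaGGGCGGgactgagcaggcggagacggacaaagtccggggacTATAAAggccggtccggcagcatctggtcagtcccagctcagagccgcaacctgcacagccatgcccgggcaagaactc
BIRC2: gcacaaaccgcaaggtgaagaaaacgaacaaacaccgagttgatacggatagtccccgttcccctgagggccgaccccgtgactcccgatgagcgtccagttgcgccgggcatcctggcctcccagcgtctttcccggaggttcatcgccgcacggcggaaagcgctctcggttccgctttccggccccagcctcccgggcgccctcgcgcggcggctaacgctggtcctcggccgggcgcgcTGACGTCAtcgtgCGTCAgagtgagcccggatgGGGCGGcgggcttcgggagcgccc

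TP53INP1 had no promoter window, so its promoter was not examined. Across the 9 windows of the other 6 genes, some of them overlapping, the E-box CACGTG, the preferred site of MYC proteins, was not found in any. The same letters occur in 7.26% of all 35116 windows. The p53 decamer, 2 of which make up a p53 response element, was not found in any of the 9 windows either, with no mismatch allowed. It occurs in 6.63% of all windows, a share for 1 decamer and not for the whole element. The variant E-box CATGTG lay 15 bases after the start in the first listed of the 3 windows of XIAP and in 1 overlapping window, and 11.1% of all windows hold it. PMAIP1 held 1 CRE core, 55 bases before its start, and 4 GC boxes, while 24.6% of all windows have a CRE core and 45.0% a GC box. Another of the windows of XIAP held 2 CRE cores, 26 bases before and 7 bases after its start. GC boxes also lay in windows of APAF1, BIRC2 and XIAP. BIRC2 held the complete CRE TGACGTCA, found in 1.85% of all windows, which overlaps 2 of its 3 CRE cores. GDF15 had a TATA box 29 bases before the start, as 11.5% of all windows have anywhere in the window, and 2 GC boxes. TP53I3 held none of these motifs. A match is a description of letters, not evidence of binding, and the lack of a match says only that the letters are not in this window.

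**Figure D1:**
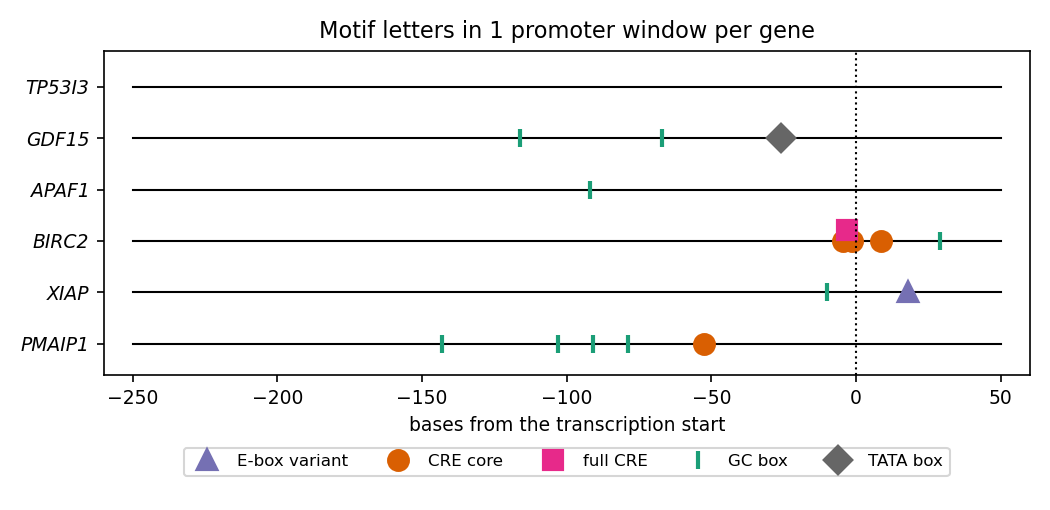
Positions of motif letters in the first listed promoter window of the 6 genes with an entry, in bases from the annotated transcription start (x axis). Each line is a 300-base window, symbols mark matches on either strand, and PMAIP1 shows a CRE core upstream of the start and BIRC2 a complete CRE at the start.

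The deposited values are RMA values on the log2 scale, in which a difference of 1 is 2-fold. Differences were taken as MYCN siRNA minus control siRNA. The arrays correlated at r = 0.986, and their medians over all probe sets were 4.55 with MYCN siRNA and 4.60 with control siRNA. A gene was counted as measured when it reached its array's median in at least 1 array, which kept 10592 genes. All 7 members lay above the median in both arrays, at 6.01 to 8.64 with MYCN siRNA and 5.36 to 7.65 with control siRNA. The only spread available is that between probe sets of 1 gene, an SD of 0.32 per probe set from 374 pairs, which leaves out the spread between cultures and between arrays. Markers of noradrenergic neuroblastoma were present, and the 9 of 11 that were measured lay at 6.53 to 10.96 with MYCN siRNA and 6.47 to 10.73 with control siRNA. Of 25 markers of fibroblasts, blood, endothelium, epithelium and glia, 10 were measured, with summed linear levels of 1036 with MYCN siRNA and 702 with control siRNA. The higher sum comes from CD68, which read 9.0 with MYCN siRNA and 7.27 with control siRNA. Of the 10, 4 were higher and 6 lower, with a median difference of −0.17. Among the adrenergic markers 7 of 9 were higher, beside 50.9% of all measured genes. The 9 ran from ISL1, a homeobox factor, at −0.43 to DBH, the enzyme that makes noradrenaline, at 1.45. DBH read 10.77 with MYCN siRNA and 9.32 with control siRNA (2.73-fold higher), the one marker of that list past 2-fold. Of the markers of other cell types, CD68 was 1.74 higher and S100B 1.02 higher with MYCN siRNA, LUM differed by −1.17, and the part of such markers in the results was not tested. In RNA from whole cultures, fewer cells of a kind and less RNA per cell cannot be told apart.

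Of the 7 genes, 6 were higher and 1 was lower with MYCN siRNA. TP53INP1, TP53I3 and GDF15 were at least 2-fold higher and PMAIP1 at least 2-fold lower, while APAF1, BIRC2 and XIAP were higher by less than 2-fold. Of all measured genes, the share past 2-fold was 2.21% in the higher and 1.16% in the lower direction. A difference above 0 was found in 50.9% of them and one below 0 in 48%. The members were chosen for these differences, so the counts are a description and the background shares are given for scale only.

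**Figure D2:**
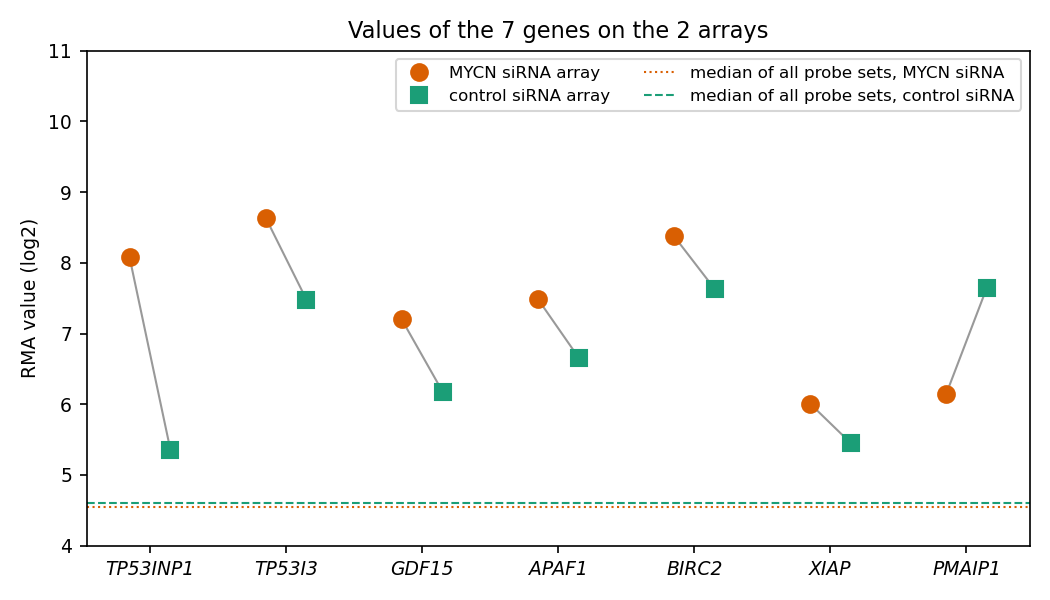
RMA values (log2, y axis) of the 7 genes, with the MYCN siRNA array as circles on the left of each pair, the control siRNA array as squares on the right, and the median of all probe sets of each array as a horizontal line. TP53INP1 has the steepest line, at 8.08 with MYCN siRNA against 5.36 with control siRNA, and PMAIP1 is the member that is lower with MYCN siRNA.

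Among the p53 targets of stress and metabolism, TP53INP1 read 8.08 with MYCN siRNA and 5.36 with control siRNA. The difference of 2.72, or 6.58-fold, placed it highest of the 10592 measured genes, and it was 8.6 times the SD between probe sets. With control siRNA TP53INP1 lay 0.75 above the array median, where values are not shown to be above background, so its fold is uncertain. TP53I3 read 8.64 with MYCN siRNA and 7.48 with control siRNA, a difference of 1.16 (2.24-fold) that ranked 130 from the top. GDF15 read 7.20 with MYCN siRNA and 6.18 with control siRNA. Its difference of 1.01 (2.02-fold, rank 223) stood at the 2-fold line, and it was 0.96 after quantile normalization, 0.99 after loess and 0.88 with an offset of 16 on linear values. TP53I3 and GDF15 lay 0.15 apart in their differences, within the 0.45 that is the SD of a gap between 2 probe sets, whereas TP53INP1 stood 1.56 above TP53I3.

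PMAIP1, which encodes the BH3-only protein NOXA and is also a p53 target, went against the other members. It read 6.14 with MYCN siRNA and 7.65 with control siRNA, a difference of −1.51 or 2.85-fold lower, the 13th lowest value of all measured genes. Of the 1979 measured genes whose mean level lay within 0.5 of its own, 0.152% had a difference as low or lower, PMAIP1 included. As PMAIP1 was chosen for its difference, this share is given for scale only. In the order of differences PMAIP1 stood 2.07 below XIAP, the next member.

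For APAF1 of the apoptosome and the inhibitor of apoptosis genes BIRC2 and XIAP, the differences were under 2-fold. APAF1, the scaffold that activates caspase-9, read 7.49 with MYCN siRNA and 6.66 with control siRNA (difference 0.83, 1.77-fold). BIRC2 read 8.38 with MYCN siRNA and 7.63 with control siRNA (difference 0.74, 1.67-fold). XIAP, the direct inhibitor of executioner caspases, read 6.01 with MYCN siRNA and 5.45 with control siRNA (difference 0.56, 1.47-fold). With control siRNA it lay 0.85 above the array median, so its fold is uncertain too, and the difference was 0.43 with the offset. Gaps of 0.08 between APAF1 and BIRC2 and of 0.19 between BIRC2 and XIAP lay within 0.45, as did the gap of 0.19 between GDF15 and APAF1, so the order from TP53I3 to XIAP is not resolved step by step. A difference of at least 1.5-fold, which APAF1 and BIRC2 reach and XIAP does not, was found in 8.81% of measured genes in the higher direction and 5.79% in the lower. Of the genes with a mean level within 0.5 of their own, 5.23% were at least as high as APAF1, 6.84% as BIRC2 and 10.5% as XIAP, each gene included.

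**Figure D3:**
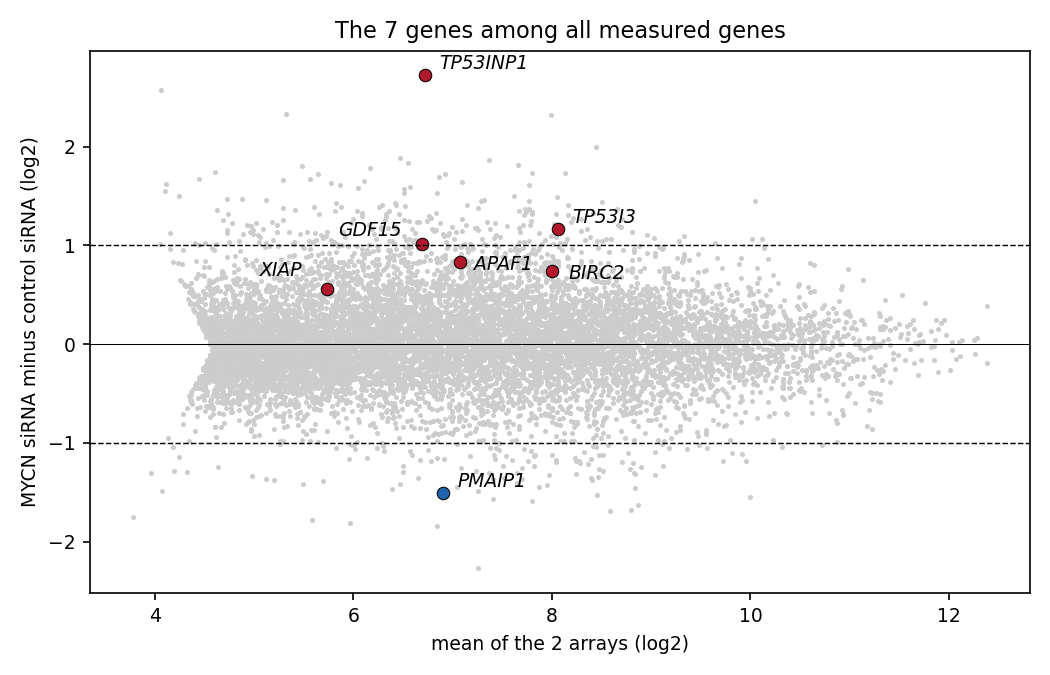
Difference between MYCN siRNA and control siRNA (log2, y axis) against the mean of the 2 arrays (log2, x axis) for the 10592 measured genes in grey, with the 7 genes in red (higher) or blue (lower) and dashed lines at 2-fold. TP53INP1 is the topmost point, and XIAP, BIRC2 and APAF1 lie inside the dashed lines.

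The rest of the p53 response was examined in lists grouped by role. For scale beside each list below, 50.9% of all measured genes were above 0 and 48% below. At least 2-fold higher were 2.21%, and at least 2-fold lower 1.16%. Of 58 listed p53 targets, 36 were analysed here and 31 were measured. Without the members, 26 remained, of which 15 were higher and 11 lower, with a median difference of 0.11 against 0.01 over all measured genes. ABHD4, a lipid hydrolase, read 6.74 with MYCN siRNA and 5.44 with control siRNA (2.46-fold higher). CPT1C, a brain form of carnitine palmitoyltransferase, read 7.42 with MYCN siRNA and 6.14 with control siRNA (2.42-fold higher). None of the 26 was 2-fold lower.

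By role, the 15 measured targets of arrest and feedback had a median of 0.33, with 10 higher and 5 lower. They ran from KITLG, the ligand of the KIT receptor, at −0.81 to ABHD4 at 1.30. KITLG read 4.51 with MYCN siRNA, under that array's median of 4.55, and 5.32 with control siRNA, so its difference is uncertain. The 8 targets of repair and metabolism had a median of 0.06, with 4 higher, TP53I3 among them, and 4 lower. The median was −0.01 without TP53I3, and also with the offset, with the brightest probe set and with no filter. AEN, an apoptosis-enhancing nuclease, was lowest at −0.64, and CPT1C was highest. Among the 8 death and stress targets, 4 are members, and the other 4 were BAX at 0.04, PIDD1 at 0.09, BBC3 (PUMA) at −0.31 and BID at −0.50. BBC3 was close to the array medians, at 4.72 with MYCN siRNA and 5.03 with control siRNA, so its difference says little.

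Of the regulators of the p53 response, 15 of 27 were measured, 5 higher and 10 lower, with a median of −0.25. Over all measured genes, 48% were below 0 and the median was 0.01. HIPK2, a nuclear stress kinase with which TP53INP1 is known to act, read 8.18 with MYCN siRNA and 9.49 with control siRNA (difference −1.31, 2.48-fold lower). TP73, a transcription factor that can drive many of the genes of this response, was the highest, at 7.26 with MYCN siRNA and 6.41 with control siRNA (difference 0.86). MDM4, a negative regulator of this response, was at −0.04.

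In the BCL2 family, 11 measured genes other than PMAIP1 had a median of 0.00, with 6 higher and 5 lower and none past 2-fold. Of the guardians, MCL1, the partner that NOXA binds, read 8.69 with MYCN siRNA and 9.11 with control siRNA (difference −0.42), BCL2L1 (BCL-XL) was at 0.42 and BCL2 at 0.18. Of the pore-forming effectors, BAK1 was at −0.57 and BAX at 0.04. The BH3-only genes other than PMAIP1 ran from BID at −0.50 to BAD at 0.42, with BCL2L11 (BIM) at 0.17.

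The IAP family had 5 measured members of 7, of which BIRC2 and XIAP had the highest differences. BIRC6 was at 0.14, BIRC5 (survivin) at 0.08 and BIRC7 at −0.18. The list of antagonists had 4 measured genes and ran from GSPT1 at −0.24 to ENDOG at 0.28. ENDOG encodes a mitochondrial nuclease and is not an IAP antagonist. Of the others, HTRA2 read 9.12 in both arrays, and XAF1, the XIAP-associated factor, was at −0.13. Of 9 signalling partners of the IAP proteins, 3 were higher and 6 lower, from CHUK, a kinase of NF-kappaB signalling, at −0.45 to NFKB2, the precursor of the alternative NF-kappaB pathway, at 0.70. MAP3K14, the kinase that cIAP1 marks for degradation, was at −0.12.

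Of the 17 other genes of the apoptosome and caspase list, 3 were measured. PIDD1 and CRADD, which activate caspase-2, were at 0.09 and −0.34, and PARP1, a caspase substrate, was at −0.38. Caspase-9, caspase-3, caspase-7 and cytochrome c were not analysed here. Of the death receptor list, 4 of 14 were measured, and MLKL, the executor of necroptosis, read 4.78 with MYCN siRNA and 6.19 with control siRNA (difference −1.41, 2.66-fold lower), close to the array median with MYCN siRNA. TRADD was the highest of that list at 0.34.

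**Figure D4:**
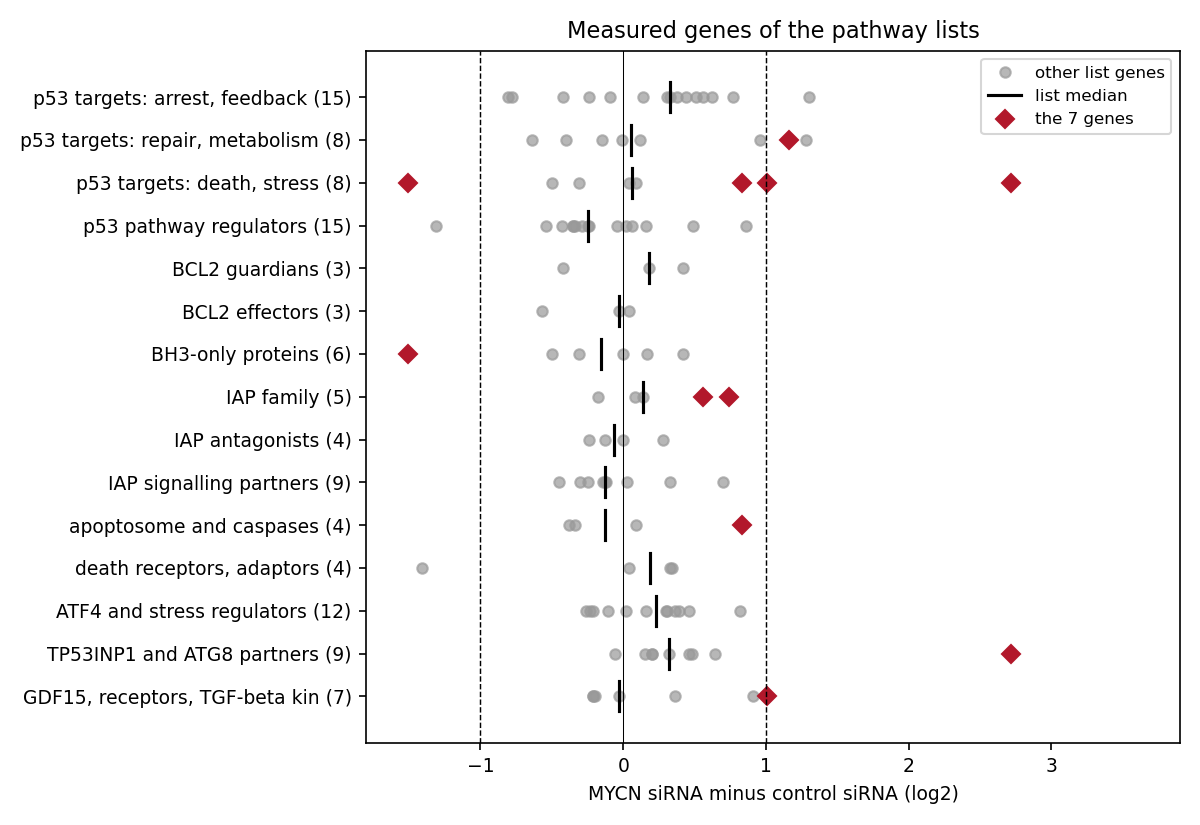
Differences between MYCN siRNA and control siRNA (log2, x axis) of the measured genes of 15 pathway lists, with the number of measured genes in brackets, members as red diamonds, other genes as grey circles and list medians as black bars. The members were chosen for these differences, and the other genes lie within 2-fold apart from ABHD4, CPT1C, HIPK2 and MLKL.

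TP53INP1 acts in autophagy through ATG8 proteins, and 8 measured genes of that list remained without it. Of these, 7 were higher and 1 was lower, with a median of 0.26 and none past 2-fold. Over all measured genes, 50.9% were above 0, 2.21% were at least 2-fold higher and the median was 0.01. TP53INP2, the paralog of TP53INP1, read 8.33 with MYCN siRNA and 7.69 with control siRNA (difference 0.64). SQSTM1, a cargo receptor of autophagy, was the lowest at −0.06.

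GDF15 signals through GFRAL together with RET. RET read 9.79 with MYCN siRNA and 8.87 with control siRNA (difference 0.91), while GFRAL was under the array medians in both, at 2.31 with MYCN siRNA and 2.14 with control siRNA. The lowest of its list was BMP4 at −0.21, at 4.41 with MYCN siRNA and 4.62 with control siRNA. PMAIP1 and GDF15 can also be induced through ATF4, and of 12 measured genes of ATF4 and related stress responses 8 were higher and 4 lower, with a median of 0.23 that was 0.09 with a filter at percentile 70. None was past 2-fold on the mean of its probe sets, but the brighter of the 2 probe sets of EGR1 was at 1.02. ATF4 itself was at −0.21, XBP1 at −0.26 and DDIT4, an inhibitor of mTORC1, at 0.82.

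The genes nearest to each member in the plane of the 2 array values, measured as Euclidean distance over 2 arrays, were RGS9 and KLHDC8A for TP53INP1, WDR37 and CYLD for TP53I3, KIF13B and REC8 for GDF15, and POLR3G and HK2 for PMAIP1. They were NECTIN2 and CA11 for APAF1, ELMO2 and CPNE4 for BIRC2, and ZNF671 and GRK4 for XIAP. The nearest gene lay 0.666 from TP53INP1 and 0.215 from PMAIP1, against 0.00881 from XIAP. With 2 arrays, such likeness is a description only.

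The differences of the 7 genes kept their direction under the 4 alternatives that can change their size (median centring, quantile normalization, loess and the offset). The offset cannot change a sign. Median centring shifts every gene alike, by the gap between the medians of 4.55 and 4.60. The sorted values of the 2 arrays already lay within 0.128 of each other. As the smallest difference was 0.56, the kept direction says little, and the alternatives bear on size only. The choice of probe set and the filter cannot change a member at all, as each gene has 1 probe set that passes. TP53INP1 ranged from 2.33 to 2.77, TP53I3 from 1.09 to 1.21, PMAIP1 from −1.56 to −1.33, APAF1 from 0.74 to 0.88, BIRC2 from 0.70 to 0.79 and XIAP from 0.43 to 0.61. Each of TP53INP1, TP53I3 and PMAIP1 was past 2-fold in all 4, and GDF15 in 1 of 4.

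**Figure D5:**
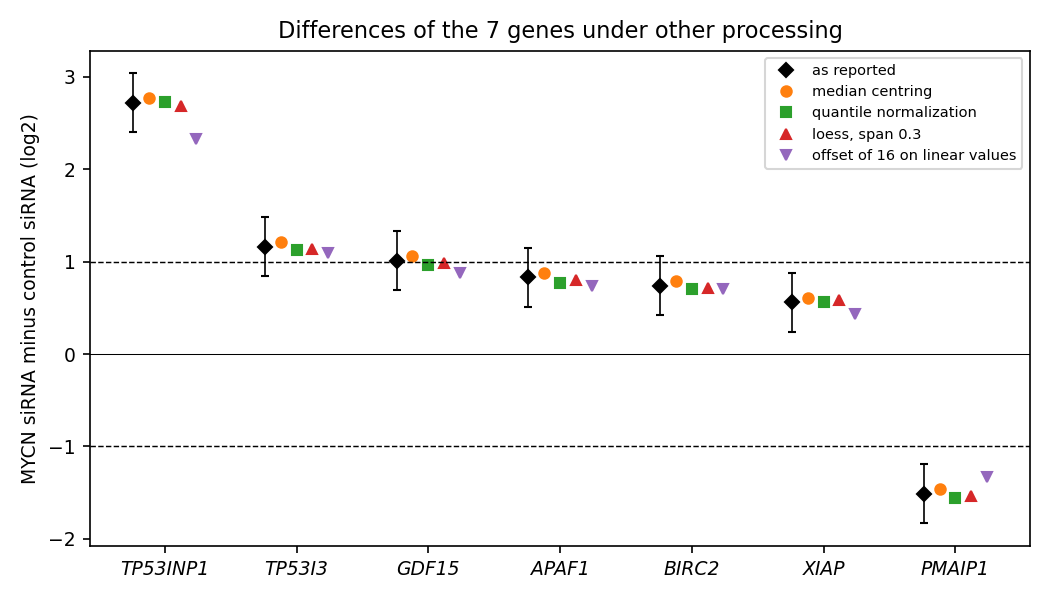
Difference between MYCN siRNA and control siRNA (log2, y axis) of the 7 genes as reported (black diamonds, with a bar of 1 SD between probe sets, 0.32) and under 4 other ways of processing (coloured symbols), with dashed lines at 2-fold. Every symbol of a gene lies on the same side of 0, and those of GDF15 fall on both sides of the line at 2-fold.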

How the data were processed

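RNA of 2 BE(2)C cultures, 1 per siRNA, was labelled from 100 ng per array. RMA is the tool that the submitters' processing notes name for the deposited log2 values; its software and settings are not stated there. RMA usually brings arrays to like distributions, and here the sorted values lay within 0.128 of each other, so a change in total messenger RNA cannot be seen. The platform annotation named 15835 of the 46255 probe sets with 1 gene and left 30420 unnamed here. Symbols were updated through the RefSeq gene table of GRCh38.p14, in which all 15835 matched. Probe sets of a gene were averaged. The 7 members, the 15 pathway lists and the marker lists were chosen with earlier results of these data known. Named genes are the members, the highest, the lowest and every gene past 2-fold of each list (of other cell types' markers, the genes past 2-fold alone), a set of paralogs and partners, and the 2 protein-coding genes nearest each member; the genes around each member were added later. Counts used Python 3.11.15 and pandas 2.3.3, loess statsmodels 0.14.6 (span 0.3). The counting was tested on simulated data. Alternatives were median centring, quantile normalization, loess, an offset of 16, the brightest probe set, no filter, a filter at percentile 70 and a threshold of 1.5-fold. Promoters are from RefSeq.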

Additional observations from a re-analysis of the deposited data

How the results depend on the processing

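Of 184 values under alternatives, 174 stayed within their limit and 10 moved. No member changed direction, which these alternatives could hardly bring about. The limit was 1 SD between probe sets for members and 1.5 times for counts. For list medians it was the SD of a median over that many probe sets. Some of the 184 could not move. The brightest probe set and no filter leave the medians of the IAP family, the BCL2 effectors and the apoptosome list fixed, so the 174 overstates the stability. With an offset of 16 on linear values, which damps dim genes, TP53INP1 was at 2.33 and 124 genes were at least 2-fold higher, against 234 as reported. At a threshold of 1.5-fold, 933 genes were higher and 613 lower, against 234 and 123 at 2-fold. A lower threshold can only raise these counts, and both are among the 10 values that moved. With the filter at percentile 70, which keeps fewer genes, the list median was −0.50 for BH3-only proteins (−0.15 as reported), 0.35 for the IAP family (0.14), 0.09 for the apoptosome and caspases (−0.12), 0.09 for ATF4 and stress regulators (0.23), 0.64 for GDF15, its receptors and TGF-beta kin (−0.03), and 0.31 for all p53 targets with the members (0.14) but 0.13 without them (0.11). The apoptosome and GDF15 medians thus changed sign, and the GDF15 median was also above 0 after median centring (0.02), quantile normalization (0.02), loess (0.03) and with no filter (0.07). Among the named genes of the lists, EGR1 had 2 probe sets that disagreed, at 1.02 and −0.10. Median centring moved the median of all measured genes to 0.06. No paired analysis was possible because each group has 1 array.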

Other observations

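The nearest measured genes on either side of each member in the RefSeq order (genes not analysed or not measured here, such as BIRC3 next to BIRC2, were passed over), looked up after the values were seen, had differences from −0.84 to 0.95, with 7 of 14 higher and 0 past 2-fold. IKBIP, which lies head to head with APAF1 with 502 bases between their annotated starts, read 7.33 with MYCN siRNA and 6.81 with control siRNA (difference 0.52), beside the 0.83 of APAF1. ITSN2, next to TP53I3, was at 0.95, and WDCP, on its other side, at −0.63. MC4R, next to PMAIP1, was at −0.84, at 4.89 with MYCN siRNA and 5.72 with control siRNA, and CCBE1, on the other side, at −0.21.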
